A study of Mus musculus with 8 samples.

Results

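Mir183, Mir96 and Mir182 are 3 microRNA (miRNA) genes that lie together on mouse chromosome 6. They were taken by position and name from the rows of both count tables, between 30165918 and 30169737 (mm10, minus strand), and they are the only 3 of the 2202 counted features in that interval. The cluster was selected on the counts of proliferating against resting cells, whose difference was known beforehand, so that difference is given here as a description without a test. Small RNA was sequenced from B cells of mouse spleen and from the RNA precipitated with AGO2, the Argonaute protein that carries miRNAs to their targets. All mice were Ago2HA/HA, so that both gene copies encode AGO2 with an HA epitope and an anti-HA antibody precipitates it. The 8 libraries form 4 groups of 2: the AGO2 immunoprecipitate (IP) of proliferating cells, the input RNA of proliferating cells, the IP of resting cells and the input of resting cells. Resting B cells were purified by removing CD43-bearing cells, and proliferating ones are the same kind of cells after activation in culture. The activating agent, the length of culture, the age of the mice and whether replicates 1 and 2 are separate animals are not given in the labels, so p-values measure only the spread between these libraries, which may be technical. Per the labels, control cells lacking the HA tag yielded no precipitated RNA and were not sequenced, and each IP is therefore set against the input of the same cell state.

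A miRNA gene is transcribed as part of a longer RNA, cut to a hairpin and then to a mature strand that AGO2 binds. Bases 2 to 8 of that strand, the seed, pair with target mRNAs. The miR-183 cluster is known from sensory organs such as the retina and the inner ear, where its members are made from a common primary transcript. In mouse T helper cells miR-182 is known to be induced by interleukin signals and to repress Foxo1, a transcription factor that keeps lymphocytes quiescent, and miR-182 is also known to be induced in activated B cells.

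In the direction of transcription Mir183 comes first (chr6:30169668-30169737, ENSMUSG00000065619.2, 70 nt), then Mir96 after a gap of 116 bp (chr6:30169446-30169551, ENSMUSG00000065586.1, 106 nt), then Mir182 after a further 3453 bp (chr6:30165918-30165992, ENSMUSG00000076361.1, 75 nt). All lie within the span of the long non-coding RNA gene Mirc35hg (30158640 to 30174125), and no other counted feature overlaps any of them. A count covers a whole hairpin, so the arms cannot be told apart. The hairpins as RefSeq gives them (GRCm38.p6, minus strand) are shown to make clear what was counted, with both annotated mature arms in capitals.
Mir183: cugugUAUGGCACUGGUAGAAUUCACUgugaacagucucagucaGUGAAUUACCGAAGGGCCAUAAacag
Mir96: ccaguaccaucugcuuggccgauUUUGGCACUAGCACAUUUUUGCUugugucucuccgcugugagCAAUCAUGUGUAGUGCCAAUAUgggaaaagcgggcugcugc
Mir182: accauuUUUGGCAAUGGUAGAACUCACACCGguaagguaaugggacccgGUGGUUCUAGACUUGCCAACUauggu

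The 5′ arms are the strands for which the family is known, and their seeds (capitals) are near relatives. The last of the sequences belongs to another chromosome and is shown because its seed is that of miR-96-5p.
mmu-miR-183-5p: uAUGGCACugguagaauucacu
mmu-miR-96-5p: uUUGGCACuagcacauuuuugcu
mmu-miR-182-5p: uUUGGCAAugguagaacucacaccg
mmu-miR-1271-5p: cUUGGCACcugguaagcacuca
Counted from 1 at the 5′ end, the seed of miR-183-5p differs from that of miR-96-5p by A2U, and the seed of miR-96-5p differs from that of miR-182-5p by C8A. Over their whole length miR-183-5p and miR-182-5p are the most alike pair, with 18 of 22 aligned bases identical, against 13 of 22 for miR-183-5p and miR-96-5p and 12 of 23 for miR-96-5p and miR-182-5p. Each of the 6 mature arms occurs in 1 hairpin of the RefSeq table, so no second gene shares its full sequence. Of all other mature miRNAs in the table, only miR-1271-5p has the seed of miR-96-5p, only miR-3475-5p has that of miR-96-3p, and no other shares a seed with the arms of Mir183 or Mir182. The features that hold miR-1271 (chromosome 13, 54578113 to 54578249) and miR-3475 (chromosome X, 140310948 to 140311012) had 0 counts in all 8 libraries, which allows each up to 3 counts, or 5.11e-05% of all counts.

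**Figure D1:**
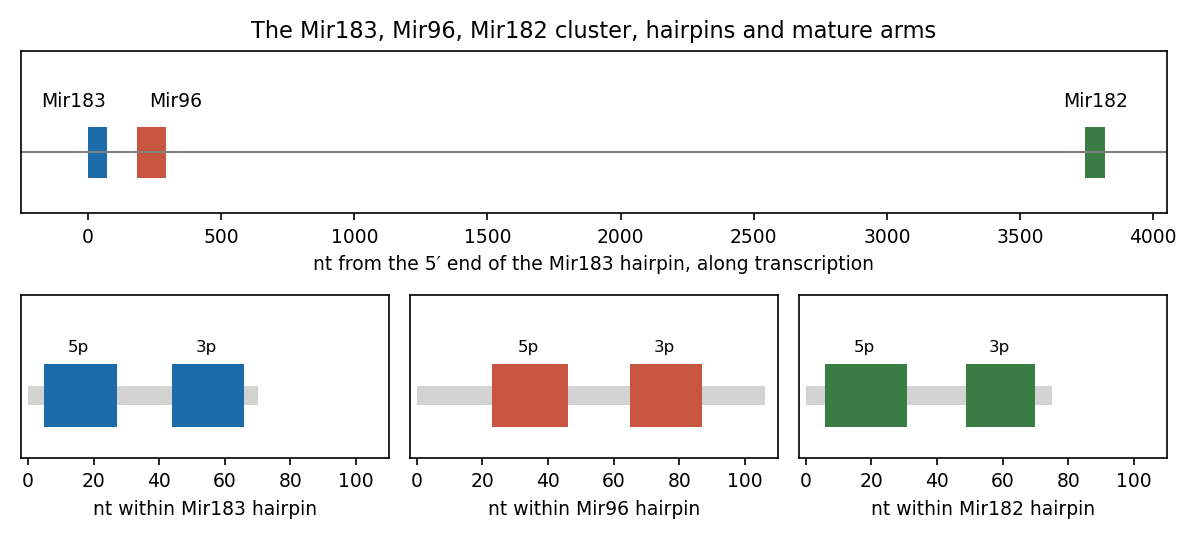
Map of the cluster to scale, with distance in nt from the 5′ end of the Mir183 hairpin (upper panel), and the annotated 5p and 3p mature arms within each hairpin (lower panels, nt within the hairpin, grey bar the counted feature). Mir183 and Mir96 lie 116 bp apart and Mir182 3453 bp further on.

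Library totals ranged from 213418 to 1681148 counts, and the inputs were shallower than the IPs. CPM below is a count divided by the library's total over the 219 tested features times its TMM factor, and scaled to 1e6. These factors ranged from 0.797 to 1.34. Of the 2202 features, 560 had a count and 219 had enough counts over the 4 groups together to be tested, all 3 members among them. The lymphocyte miRNAs Mir150 and Mir155 together took 13.9% to 31.9% of a library, so lymphocyte markers were abundant in every library, though they do not tell B cells from other lymphocytes. Mir142, the third lymphocyte marker, had 0 counts but overlaps a feature on the other strand, so its level is unknown.

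All 3 members were more abundant in proliferating than in resting B cells, in the IP and in the input. Mir183 had 455 and 1029 CPM in the proliferating IP, against 48.5 and 49.6 CPM in the resting IP (replicates 1 and 2, here and below). In the input it had 979.9 and 1018 CPM in proliferating cells, against 95.2 and 71.3 CPM in resting cells. The groups did not overlap in the IP or in the input. The mean CPM of Mir183 in proliferating cells was 15.1 times the resting mean in the IP and 12 times in the input, with fitted log2 fold changes of 3.92 (SE 0.41) and 3.59 (SE 0.42).

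Mir96 was the scarcest member. It had 83.4 and 175 CPM in the proliferating IP, against 15.7 and 18.8 CPM in the resting IP. In the input it had 93.2 and 94.8 CPM in proliferating cells, against 11.2 and 4.91 CPM in resting cells. The groups again did not overlap. The 2 resting input values rest on 4 and 2 counts, and 3 counts correspond to 8.40 and 7.37 CPM in those libraries, so the level there is barely measured. Its log2 fold changes were 2.91 (SE 0.65) in the IP and 3.54 (SE 0.79) in the input, and the input value was 4.24 without replicate 1 of the resting input and 2.95 without replicate 2. From the summed counts alone, 60 in the proliferating inputs against 6 in the resting inputs, the ratio scaled by effective library size was 11.96 with an exact 95% interval of 5.18 to 33.9, which covers counting error only.

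Mir182 was the most abundant member in all 8 libraries. It had 1746 and 3102 CPM in the proliferating IP, against 180.0 and 145 CPM in the resting IP. In the input it had 2016 and 1772 CPM in proliferating cells, against 252 and 187 CPM in resting cells. The lowest proliferating value was several times the highest resting value. Its log2 fold changes were 3.90 (SE 0.36) in the IP and 3.11 (SE 0.35) in the input, or 14.9 and 8.63 times the resting mean. In proliferating cells Mir182 stood between the 30th and the 40th place among all features of a library, and in resting cells between the 85th and the 94th.

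**Figure D2:**
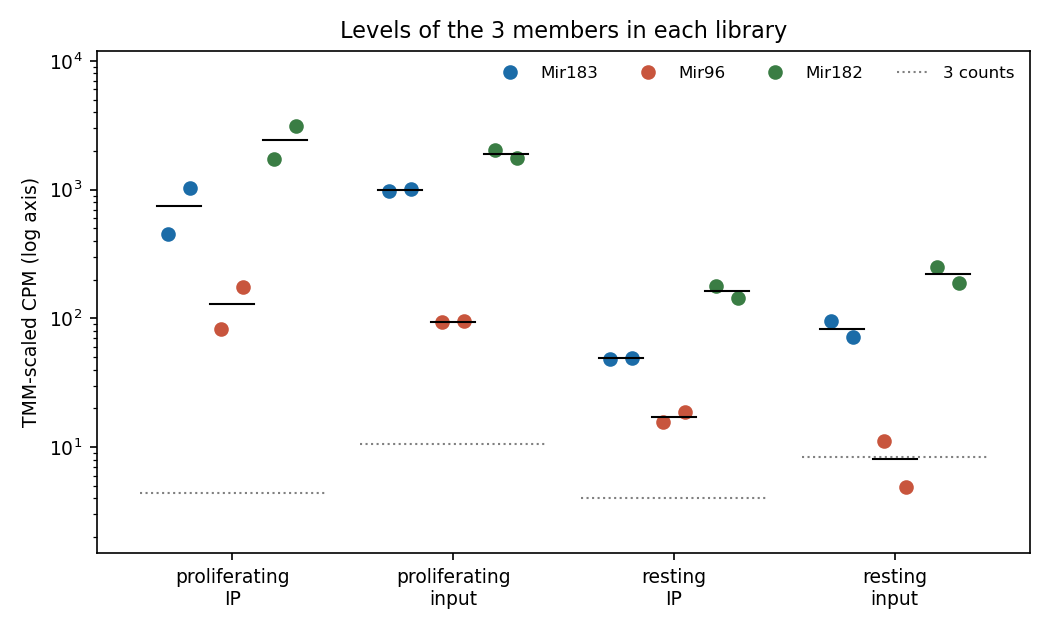
TMM-scaled CPM (log axis) of Mir183, Mir96 and Mir182 in each of the 8 libraries, by group, with replicate 1 left of replicate 2; black bars are group means and dotted lines mark 3 counts in the shallower library of the group. Every proliferating value lies above the resting values of the same miRNA, and Mir96 in the resting input lies at about 3 counts.

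For all 3 members the proliferating libraries lay above the resting ones without overlap, as did 42% of the 219 tested features in the IP and 43.4% in the input. This count describes the contrast for which the cluster was singled out. By size of the log2 fold change over all 219 features, Mir183, Mir96 and Mir182 stood at places 5, 17 and 6 from the top in the IP and at places 10, 11 and 19 in the input. The median of all features was 0.21 in the IP and 0.04 in the input. Together the members took 0.196% and 0.369% of the counts of the proliferating IPs, against 0.0195% and 0.0202% of the resting IPs. In the inputs they took 0.396% and 0.385% in proliferating cells, against 0.0357% and 0.0277% in resting cells. In these bulk samples a larger number of expressing cells cannot be told apart from more RNA per cell. Cell state also coincides with the table in which the counts were deposited.

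**Figure D3:**
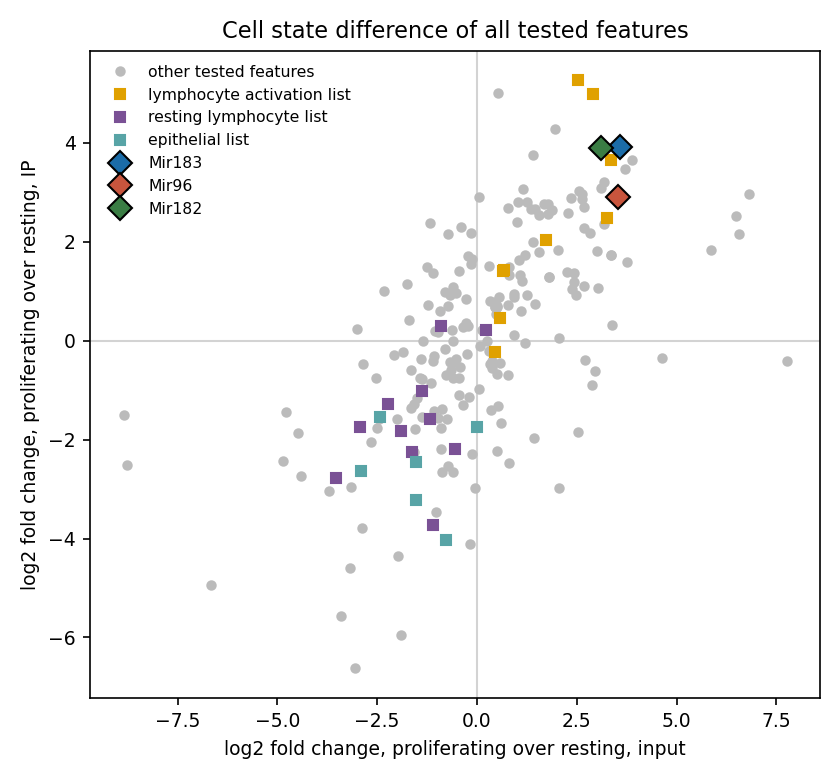
Log2 fold change of proliferating over resting cells in the input (horizontal) and in the IP (vertical) for the 219 tested features (grey points), with 3 lists as squares and the members as diamonds. The members lie at 3.11 to 3.59 in the input and at 2.91 to 3.92 in the IP.

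Within the groups the members moved together in the proliferating IP, where replicate 2 exceeded replicate 1 by 1.17 (Mir183), 1.04 (Mir96) and 0.83 (Mir182) on the log2 scale. The median size of that difference over the 219 features was 0.43, and 17 features differed by more than Mir183. In the proliferating input the replicates of the members differed by 0.19 or less. In the resting IP replicate 2 minus replicate 1 was 0.03 (Mir183), 0.22 (Mir96) and -0.31 (Mir182), beside a median size of 0.44. In the resting input it was -0.40, -0.84 and -0.43 in the same order, beside a median size of 0.38. Each of these rests on 1 pair of libraries. Without replicate 1 of the proliferating IP the log2 fold change between cell states in the IP was 4.41 for Mir183, 3.36 for Mir96 and 4.28 for Mir182, and without replicate 2 it was 3.07, 2.13 and 3.29.

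The comparison of IP with input shows how the members stand among AGO2-bound miRNAs relative to total small RNA. None of the 3 passed the test in either cell state (edgeR quasi-likelihood test with Benjamini-Hochberg adjustment over 219 features, and 0 of 3 by DESeq2), while 26.9% of all features passed in proliferating and 28.8% in resting cells. At an unadjusted p under 0.05 by edgeR it was also 0 of 3, against 77 of the 219 features in proliferating and 87 in resting cells. Mir183 in the proliferating IP was at a log2 fold change of -0.43 to the input (95% interval -1.15 to 0.30, edgeR adjusted p = 0.43). Mir96 was at 0.46 (-0.76 to 1.69, edgeR adjusted p = 0.60) and Mir182 at 0.36 (-0.28 to 0.997, edgeR adjusted p = 0.45). The IP and input libraries of proliferating cells overlapped for all 3, while 30.6% of features did not overlap on the high side and as many on the low side. The directions depend on single libraries. Without replicate 2 of the proliferating IP, Mir96 was at -0.21 and Mir182 at -0.15, and Mir183 at -1.17 (edgeR adjusted p = 0.031). Such a fit leaves 1 library in the group, which is assumed to vary like the libraries of the other groups, so its p-value rests on their spread alone. Mir182 was also at -0.10 without replicate 2 of the proliferating input. Without replicate 1 of the proliferating IP, Mir183 was at 0.10 (edgeR adjusted p = 0.87). With library totals in place of TMM factors, a scaling that moved the median of all features by -0.61, Mir183 was at -1.04 (edgeR adjusted p = 0.038), Mir96 at -0.14 and Mir182 at -0.25.

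In resting cells Mir183 was at -0.76 (95% interval -1.60 to 0.08, edgeR adjusted p = 0.17) and Mir182 at -0.43 (-1.11 to 0.25, edgeR adjusted p = 0.35) in the IP relative to the input. Mir96 was at 1.09 (-0.57 to 2.75, edgeR adjusted p = 0.33). It was tested here only because the filter on low counts took all 4 groups together. With the 2 resting groups alone Mir96 failed that filter, so this p-value decides little. Both IP libraries lay below both inputs for Mir183 and Mir182 and above them for Mir96. Such a lack of overlap is common here, at 34.7% of features on the low side and 33.3% on the high side. The Mir96 value compares 35 counts with 6, a ratio of 2.14 with an exact 95% counting interval of 0.889 to 6.22. Without replicate 1 of the proliferating IP, which enters through the shared scaling and spread, Mir183 in resting cells was at -0.93 (edgeR adjusted p = 0.034). Without replicate 1 of the resting input, Mir183 was at -0.34 (edgeR adjusted p = 0.72), Mir182 at -0.01 and Mir96 at 1.96 (edgeR adjusted p = 0.28).

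The difference of the IP effect between the cell states, proliferating minus resting, did not pass for any member (0 of 3 by edgeR and 0 of 3 by DESeq2), against 17.4% of all features. At an unadjusted p under 0.05 by edgeR it was also 0 of 3, against 63 of the 219 features. It was 0.33 for Mir183 (95% interval -0.77 to 1.43, edgeR adjusted p = 0.74), -0.63 for Mir96 (-2.67 to 1.42, edgeR adjusted p = 0.74) and 0.78 for Mir182 (-0.15 to 1.72, edgeR adjusted p = 0.25). For Mir96 this difference includes the comparison in resting cells, where it failed the filter on low counts with the resting groups alone. The resting inputs hold 4 and 2 counts of Mir96, so its p-value and its place among the 3 decide little. The intervals leave room for differences of more than 1 on the log2 scale. These values also depend on single libraries. Mir183 was at -0.51 without replicate 2 of the proliferating IP, at -0.24 without replicate 2 of the proliferating input and at -0.39 without replicate 1 of the resting input. It was near 0 without replicate 1 of the proliferating input, and slightly below 0 with upper-quartile factors and with library totals. Mir96 was at 0.021 without replicate 1 of the proliferating IP and at -1.80 without replicate 1 of the resting input. Mir182 was at 1.37 without replicate 1 of the proliferating IP (edgeR adjusted p = 0.025, again with a lone library in that group) and at 0.065 without replicate 1 of the resting input.

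**Figure D4:**
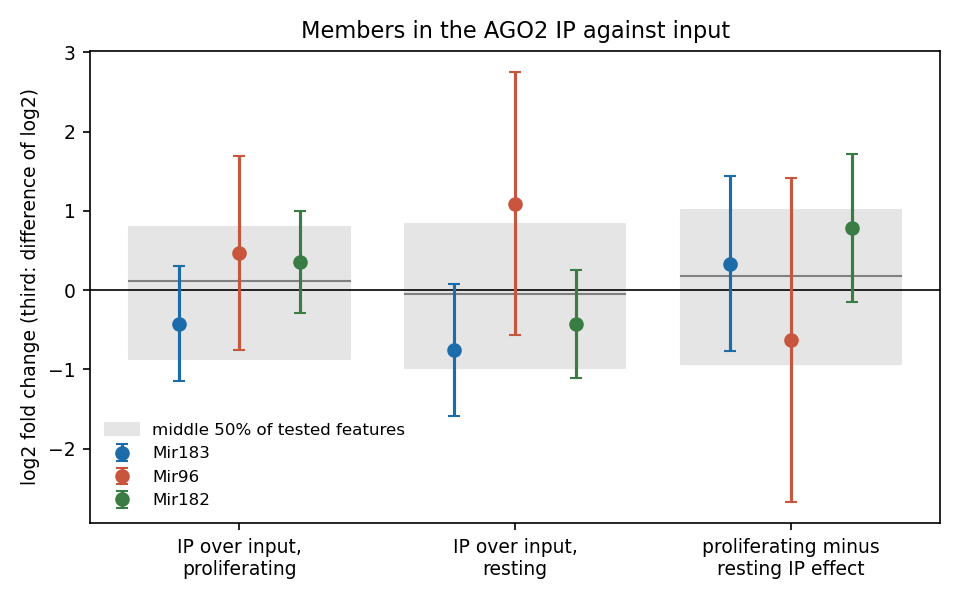
Log2 fold change of IP over input for each member in proliferating and in resting cells, and the difference of both (proliferating minus resting), with 95% intervals of the edgeR fit; grey boxes span the middle 50% of the 219 tested features and grey lines their median. All 9 intervals include 0.

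Ratios between members within a library do not depend on scaling. The IP libraries stood apart from the inputs in the ratios of Mir182 and of Mir96 to Mir183. In the ratio of Mir96 to Mir182 they did so in resting cells only. The count of Mir182 per count of Mir183 was 3.84 and 3.01 in the proliferating IP, against 2.06 and 1.74 in the proliferating input. In resting cells it was 3.71 and 2.92 in the IP, against 2.65 and 2.62 in the input. All 4 IP libraries lay above all 4 inputs. The log2 ratio was higher in the IP by 0.58 on average, 0.85 in proliferating and 0.32 in resting cells. The exact 2-sided permutation test within cell states gave p = 0.0556 (4 IP against 4 input libraries), the smallest value that its 36 arrangements allow, so this design could not pass 0.05. In resting cells the counting intervals of single libraries overlapped. An example is 1.99 to 4.36 for IP replicate 2 and 1.77 to 4.05 for input replicate 1. How often a ratio of 2 other features sets the IPs apart was not counted, for this ratio or for those below. Single features did so often. On the high side 30.6% did not overlap in proliferating and 33.3% in resting cells, and on the low side 30.6% and 34.7%. The separation is therefore not shown to be particular to the cluster.

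Only the ratio of Mir182 to Mir183 was planned. The ratios of Mir96 to Mir183 and to Mir182 were added after the values were seen. The ratio of Mir96 to Mir183 is no independent repeat of the ratio above, since both move with their common denominator Mir183. It was 0.183 and 0.170 in the proliferating IP, against 0.0951 and 0.0931 in the proliferating input. In resting cells it was 0.323 and 0.378 in the IP, against 0.118 and 0.0690 in the input. All 4 IP libraries again lay above all 4 inputs, by 1.33 on the log2 scale on average (exact 2-sided permutation p = 0.0556). The resting inputs contribute only 4 and 2 counts of Mir96 to this. The ratio of Mir96 to Mir182 overlapped in proliferating cells, at 0.0478 and 0.0563 in the IP against 0.0462 and 0.0535 in the input. In resting cells it was 0.0871 and 0.130 in the IP, against 0.0444 and 0.0263 in the input, again on 4 and 2 counts of Mir96. Over both cell states its exact permutation p was 0.11. Adjusted over the 3 ratios the exact permutation p-values were 0.083, 0.083 and 0.11.

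**Figure D5:**
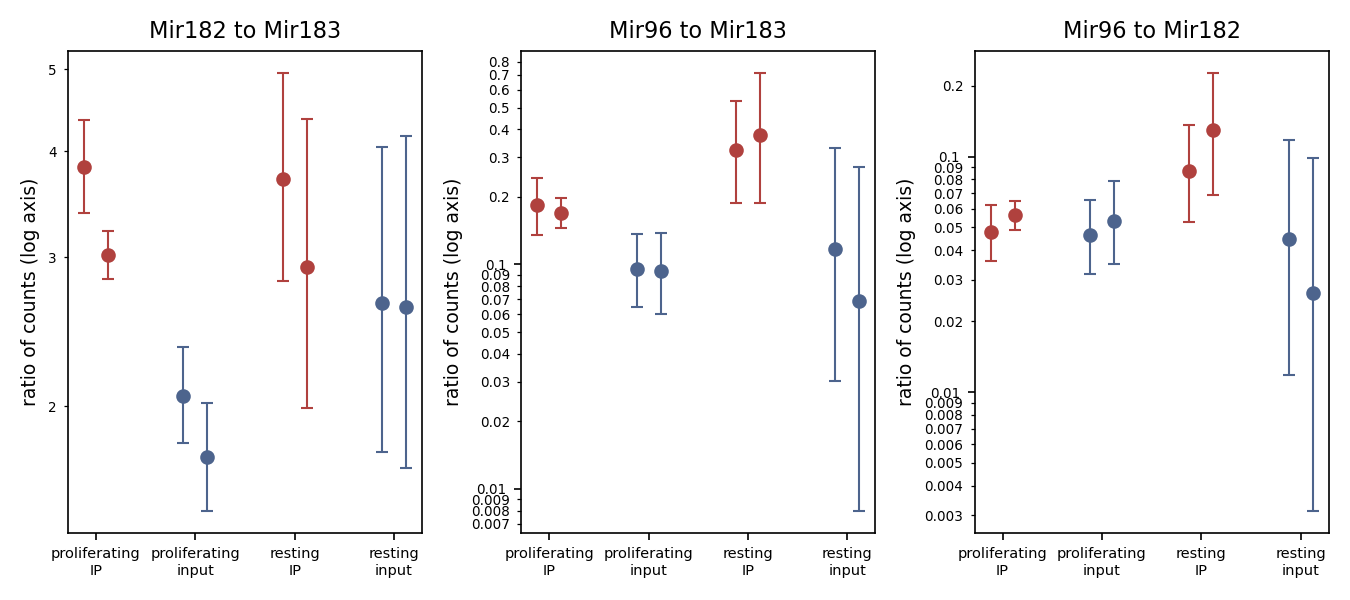
Ratio of the counts of each pair of members in each library (log axes), by group, with replicate 1 left of replicate 2; bars are exact 95% counting intervals, red points IP and blue points input. Both ratios to Mir183 are higher in the 4 IP libraries than in the 4 inputs, with means 0.58 and 1.33 higher on the log2 scale. The share of other feature pairs that stand apart in this way was not counted.

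As shares of the cluster's counts, Mir183 held 21.9% ± 2.81 in the proliferating IP and 33.5% ± 2.52 in the proliferating input (mean ± SD, n = 2 each here and below). In resting cells it held 21.6% ± 2.40 of the IP and 26.8% ± 0.382 of the input. Mir182 held 74.2% ± 3.10 and 63.4% ± 2.71 in the IP and input of proliferating cells, and 70.8% ± 4.08 and 70.7% ± 0.506 in the IP and input of resting cells. Mir96 held from 1.87% to 8.81% of a library's cluster counts. The order Mir182, Mir183, Mir96 held in 8 of 8 libraries, both as CPM and as CPM per 100 nt of the feature. How evenly the 3 sequences enter a small RNA library was not tested.

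The 5 features outside the cluster with the profile nearest to the members' mean over the 8 libraries were Mir155, Mir18b, Mir34a, Mir18 and Mir298. Likeness is the root mean square difference of log2 CPM centred on each feature, and it was 0.24 for Mir155, 0.25 for Mir18b, 0.30 for Mir34a, 0.38 for Mir18 and 0.45 for Mir298. The members themselves were at 0.19 (Mir182), 0.35 (Mir183) and 0.44 (Mir96) from their own mean. Mir155 thus lay nearer to it than Mir183 or Mir96, although each member enters that mean and Mir155 does not. The Mir96 profile includes the resting inputs, with 4 and 2 counts. The profiles also hold the difference between cell states for which the cluster was selected, so these distances are a description. Mir155, made from an activation-induced transcript in B cells, averaged 135258 CPM in the proliferating IP and 10740.3 CPM in the resting IP, and 115335 CPM in the proliferating and 11190 CPM in the resting input. Mir34a, a known target of p53, averaged 4233 CPM in the proliferating IP and 462 CPM in the resting IP, and 5751 CPM in the proliferating and 638 CPM in the resting input. Mir18 belongs to a cluster known to promote lymphocyte growth and Mir18b to its relative on the X chromosome, while Mir298 lies in the imprinted Gnas region. Mir18b averaged 455 CPM in the proliferating IP and 53.9 CPM in the resting IP, and 464 CPM in the proliferating and 53.6 CPM in the resting input.

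Other miRNAs known to mark the activation of lymphocytes also differed by cell state. The lists below were drawn up with earlier results of these data known. Their counts and p-values between cell states are therefore a description and no independent evidence of a direction. Of the 9 members of the activation list 6 were higher and 0 lower in proliferating cells, in the IP and in the input alike (edgeR, adjusted p under 0.05, against 28.3% and 26% of all features higher). The list's median log2 fold change was 2.02 in the IP and 1.73 in the input, beside 0.21 and 0.04 over all features. Mir155 rose by 3.65 in the IP and 3.37 in the input (edgeR adjusted p = 5.4e-16 and 4.9e-15). That these values lie close to those of the members repeats the ranking by profile above, which used the same libraries. Mir21a, a miRNA common in activated and growing cells, rose by 0.58 in the input (edgeR adjusted p = 0.028) and was at 0.46 in the IP (edgeR adjusted p = 0.072). Mir146, the gene of miR-146a, which restrains NF-kappaB signalling, was at -0.24 in the IP and 0.44 in the input and did not pass. Under other scalings, tests and filters 5 to 6 of the 9 were higher in the IP, with at most 1 lower, and 4 to 8 in the input, with 0 lower. The count in the input was 3 of 9 without replicate 1 of the proliferating IP or without replicate 2 of the proliferating input. Of 11 tested miRNAs known from resting lymphocytes, 0 were higher and 8 lower in proliferating cells in the IP as in the input, with medians of -1.75 and -1.39 (23.7% and 23.3% of all features were lower). The count in the input was 5 without replicate 2 of the proliferating input or without replicate 1 of the resting input. Mir150, which restrains Myb in lymphocytes, fell, with log2 fold changes of -2.77 in the IP and -3.54 in the input (edgeR adjusted p = 2.4e-12 and 4.9e-15).

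Because the cluster is also known from sensory and epithelial cells, miRNAs of those cells are given beside it. Of the epithelial list (the miR-200 family, Mir203, Mir205 and Mir375) 6 of 8 were tested. Of these 6 were lower in the proliferating than in the resting IP and 3 in the input, opposite in direction to the members, where 23.7% and 23.3% of all features were lower. Mir203, known from skin epithelium, fell, with log2 fold changes of -1.55 in the IP and -2.42 in the input (edgeR adjusted p = 0.00052 and 3.0e-06). The 8 genes of the list together took 0.0510% to 0.0956% of proliferating libraries and 0.204% to 0.268% of resting libraries. Of the sensory and neural list 11 of 14 names matched a feature and 5 had a count. Besides Mir128-1 these were Mir128-2 with 28 counts over all libraries, Mir211 with 14, Mir9-3 with 3 and Mir9-2 with 1. Mir9-2 and Mir9-3 share a mature arm with other hairpins, so their own levels are uncertain. Mir137 and Mir204 were at 0. The near-identical Mir124a copies were also listed at 0, as was Mir9-1, which shares its mature arm with other hairpins and overlaps another feature, so the levels of these are unknown. Mir128-1, which is not confined to neurons and shares its mature arm with Mir128-2, gave 4077 of the list's counts and did not pass between cell states (-0.45 in the IP, -0.62 in the input). The myeloid Mir223 took 0.0695% to 0.339% of proliferating and 1.15% to 2.94% of resting libraries, and the erythroid Mir144 was lower in proliferating cells too. The endothelial Mir126a moved with the members, at 0.0626% to 0.176% of proliferating and 0.00613% to 0.0253% of resting libraries. It passed as higher in proliferating cells, at 3.74 in the IP and 1.41 in the input, and it overlaps Mir126b on the other strand, so the split of reads between both is uncertain. The hepatocyte Mir122 had 22 and 13 counts in the proliferating and 3 and 4 in the resting inputs, but 10 and 7 in the proliferating and 47 and 28 in the resting IPs. The part of these in the result for the cluster was not tested.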

How the data were processed

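Small RNA libraries (QIAseq miRNA kit, single-end, NextSeq) were aligned by the authors with STAR 2.7.9a to mm10, with SAMtools 1.15, per the submitters' processing notes. Each table deposited by the authors gives whole-number counts for miRNA features, made from deduplicated alignments per the file headers. Which program counted the reads, whether by strand, and what became of reads with several positions is not stated in the sources used here. Features were named by exact coordinates from RefSeq (GRCm38.p6), which named 1179 of 2202. Sequences are RefSeq's.

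Members and lists were chosen with earlier results of these data known. Groups and replicate numbers came from titles. edgeR 4.0.16 in R 4.3.3 fitted 4 groups to all 8 libraries (4 residual and 36.6 prior degrees of freedom) after filterByExpr with a minimum count of 10 and TMM scaling, with 2-sided tests adjusted over 219 features. SE is the absolute log2 fold change over the square root of F. On simulated data for IP against input in proliferating cells (219 features), 94.9% of 8-fold, 78.7% of 4-fold and 19.7% of 2-fold changes were called, and 0.496% of unchanged features. The simulation gave every feature the same spread, the median over features. Each feature had its mean level over all libraries, without a difference between cell states. These shares therefore need not hold for the members, nor for features with more spread or fewer counts. Log2 CPM used a prior count of 2 and ratios of members a pseudocount of 0.5 in tests. Intervals and floors of 3 counts cover counting error only. Named features are the members, the 5 nearest profiles, seed relatives and up to 3 of the most abundant tested miRNAs of a list. Single markers of other cell types, and list members at 0 or with few counts, were named after their values were seen. In every group the 2 libraries differed beyond sampling noise, with a chi-square of at least 8.56 for each degree of freedom, and were kept as separate samples. Alternatives were DESeq2 1.42.0, other scaling, no filter, a replicate block and leaving out libraries.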

Additional observations from a re-analysis of the deposited data

How the results depend on the processing

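The members' higher level in proliferating cells kept its direction under all 15 alternatives run. With upper-quartile factors, which moved the median of all features by -0.67 in the IP, the log2 fold changes there were 3.21 (Mir183), 2.20 (Mir96) and 3.20 (Mir182), and with library totals Mir182 in the input was at 3.47. Leaving out 1 library gave 3.07 to 4.41, 2.13 to 3.36 and 3.29 to 4.28 in the IP, and 3.29 to 3.84, 2.95 to 4.24 and 2.81 to 3.38 in the input, for Mir183, Mir96 and Mir182 in that order. For IP against input in proliferating cells, leaving out 1 library gave -1.17 to 0.10, -0.21 to 0.95 and -0.15 to 0.77, and library totals gave -1.04 (adjusted p = 0.038 by edgeR), -0.14 and -0.25. In resting cells the ranges were -1.02 to -0.34, 0.73 to 1.96 and -0.67 to -0.01, and for the difference of the IP effects -0.51 to 1.03, -1.80 to 0.021 and 0.065 to 1.37. That difference was -0.0279 for Mir183 with upper-quartile factors and -0.0395 with library totals. The causes were not tested.

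Leaving out 1 library, the called features numbered 30 to 63 for IP against input in proliferating cells, against 59 with all libraries. The lowest was without replicate 2 of the proliferating input, with 33 without its replicate 1 and 37 without replicate 2 of the proliferating IP. They numbered 45 to 72 in resting cells (63), 11 to 46 for the difference of IP effects (38, lowest without replicate 1 of the proliferating input), 73 to 114 for cell state in the input (108) and 94 to 116 in the IP (114). The difference of IP effects had 25 calls with DESeq2 size factors and 22 with upper-quartile factors. Of the calls for cell state in the IP 62 were higher and 52 lower in proliferating cells, 38 and 75 with upper-quartile factors. In the input they were 57 and 51, 39 and 59 with upper-quartile factors and 75 and 37 with library totals. For IP against input in proliferating cells they were 29 and 30, and 16 and 60 with library totals.

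With the replicate number as a block no member's call changed: IP against input in proliferating cells gave -0.47, 0.41 and 0.36, with 60 features called. Same-numbered libraries did not deviate together (r from -0.12 to 0.18 over 219 features), so the numbers were not taken as pairs. The ratio of Mir182 to Mir183 was higher in the IP by 0.50 to 0.67 when 1 library was left out, and permuting same-numbered pairs by sign gave an exact p of 0.125, the smallest that 4 pairs allow. Mir96 could not be fitted in resting IP against input with only those 2 groups, since it failed the filter on low counts. In the resting inputs Mir96 rests on 4 and 2 counts.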
